A study of Mus musculus with 6 samples.

Results

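The proteasome genes were taken as every row of the deposited expression table whose symbol began with Psma to Psmg and a number. This symbol rule found 50 of the 24254 rows. Of these, 19 encode subunits of the 20S core (Psma and Psmb), 20 encode subunits or assembly chaperones of the regulatory particle (Psmc and Psmd), 6 encode activators or the inhibitor (Psme and Psmf), and 4 encode core assembly chaperones (Psmg). The remaining row, Psmc3ip, is a meiotic recombination gene that shares only the symbol stem, and it was kept out of the regulatory particle sums.

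The libraries were RNA-seq libraries of mouse eggs held at metaphase II, where an ovulated egg waits for sperm. There were 3 libraries of eggs matured in vitro (IVM) and 3 libraries of eggs matured in vivo (IVO), all from mice and all carrying no other treatment in the labels. Strain, age, the number of eggs in a library and whether cumulus cells surrounded the eggs during culture were not given in the sources used here. The labels do not say that the replicates came from separate animals, so a p-value here measures no more than the spread between libraries, which may be technical.

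The proteasome is the main protease of the cytosol and nucleus. Its barrel, the 20S core, is made of outer rings of alpha subunits that gate the entrance and inner rings of beta subunits, of which Psmb5, Psmb6 and Psmb7 carry the cutting sites; the regulatory particle binds ubiquitin-tagged proteins, unfolds them with a ring of Psmc ATPases and feeds them into the barrel. In eggs, exit from metaphase II needs the proteasome to destroy cyclin B and securin, and the RNA of an egg at this stage is mostly stored maternal message, since transcription is largely silent.

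Values are FPKM (fragments scaled by transcript length and library size), which are scaled for length and can be set side by side between genes. The egg's own markers were abundant, with all 10 (among them Zp3, Gdf9 and Mos) at a mean of at least 1 FPKM and summed levels of 13011 to 13421 FPKM in IVM libraries and 8287 to 10218 FPKM in IVO libraries, so these sums did not overlap. Gdf9 made up most of that sum and hid a wider gap: 9 of the 10 egg markers were called higher in IVM by the limma fit used below, by 0.30 (Gdf9) to 3.61 (Zp3) on the log2 scale, and Oosp1 was not called. Zp2 had 16.1, 15.6 and 14.0 FPKM in IVM libraries, against 0.431, 0.447 and 0.316 FPKM in IVO libraries. The part of this shift in the proteasome results was not tested. Of 14 cumulus and granulosa markers, 6 reached a mean of 1 FPKM, and their summed levels spanned 23.3 to 44.5 FPKM in IVM and 18.1 to 49.6 FPKM in IVO libraries. Within that overlap single markers differed: Inha was called higher in IVM (log2 difference 1.90), and Tnfaip6 (-1.52) and Inhba (-1.28) were called lower. None of 8 immune and none of 6 oviduct markers reached a mean of 1 FPKM, with Cd79a and Pax8 listed at 0. Because the libraries are bulk RNA, fewer eggs and less RNA per egg cannot be told apart. Sequencing depth relative to IVM library 1, read from the steps between low FPKM values, was 0.781 to 0.908 in the other libraries, and the summed FPKM of a library was 353438 to 364983 in IVM and 394233 to 402054 in IVO.

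Proteasome subunits that are built into every particle were stored at very unequal levels per length. Of the 31 obligate subunits of the 26S particle (the core with its regulatory particle, without Psma8 and the chaperones), 14 averaged below 1 FPKM over the 6 libraries, 14 averaged between 1 and 10 FPKM and 3 averaged at least 10 FPKM. The median of the 31 means was 1.49 FPKM. Psmd3, a scaffold subunit of the lid of the regulatory particle (GRCm38 chr11:98682554-98695979, plus strand), averaged 146.3 FPKM, 98.1 times that median. Psma2, an alpha ring subunit (chr13:14613240-14674236, plus strand), followed at 25.3 FPKM, 16.98 times the median.

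More obligate subunits were detected in IVM libraries. At 1 FPKM or more stood 18, 20 and 19 of the 31 in IVM libraries 1, 2 and 3, against 15, 13 and 16 in IVO libraries 1, 2 and 3. Listed at 0 were 2, 1 and 3 of them in the IVM libraries and 6, 5 and 4 in the IVO libraries. Neither count overlapped between the groups. The whole table moved the same way, with 7853 to 8029 genes at 1 FPKM or more in IVM and 7187 to 7327 in IVO libraries; the part of that shift in the proteasome counts was not tested. A value of exactly 0 in such a table can be a failed estimate, so it is given here only as listed.

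**Figure D1:**
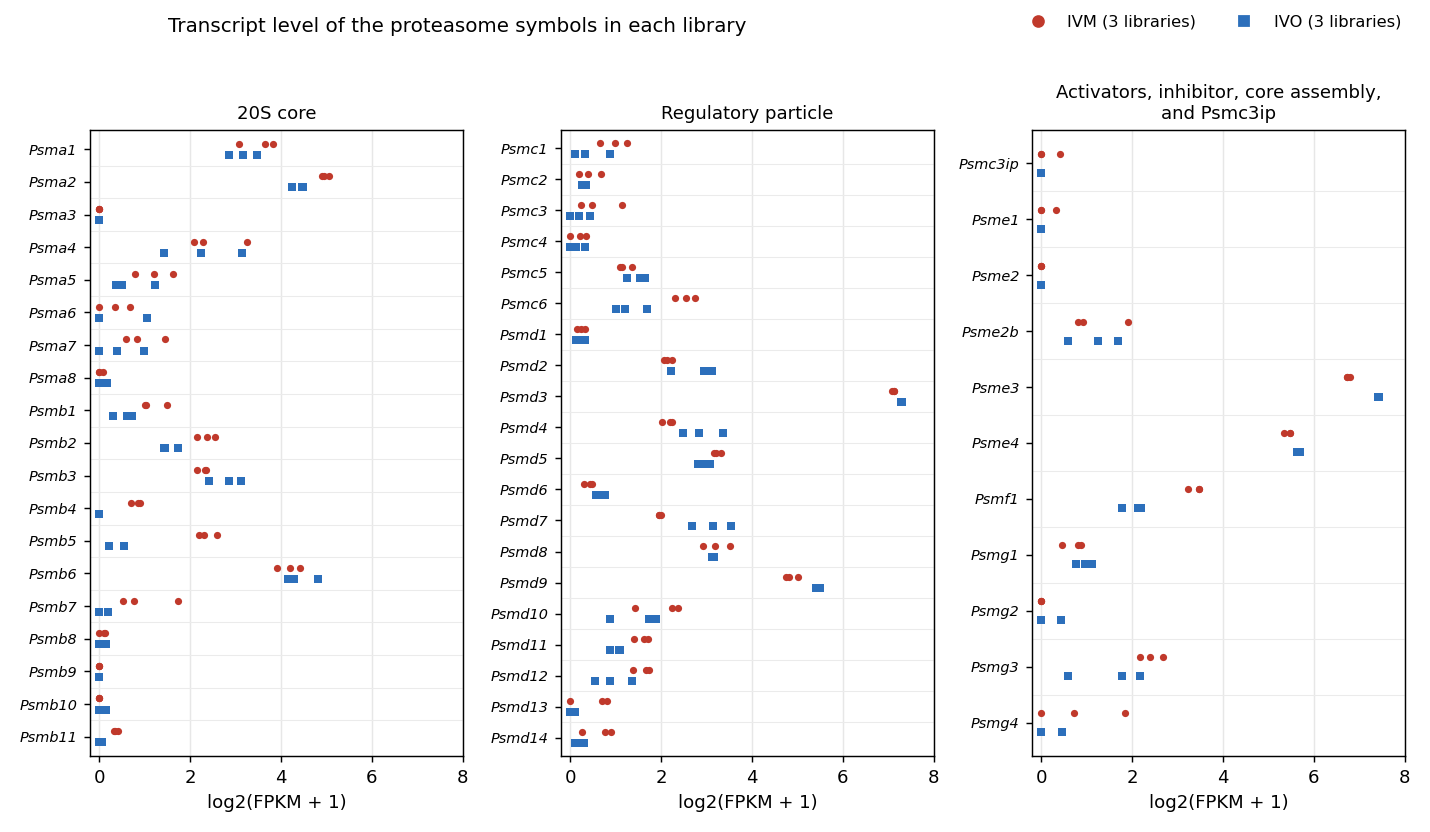
FPKM of each proteasome gene in each library (log2(FPKM + 1) on the horizontal axis; IVM circles above IVO squares within each gene), in panels for the core, the regulatory particle, and the activators and chaperones. Psmd3 and Psme3 stand above 100 FPKM in every library, while most core and ATPase subunits lie near or below 10 FPKM.

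Between the groups, 6 proteasome genes rose in IVM eggs and 4 fell, and the set as a whole did not stand out from the table. A gene was tested where its mean over the 6 libraries was at least 1 FPKM, which 25 of the 50 passed; limma on log2(FPKM + 1), fitted to 7746 genes at a Benjamini-Hochberg adjusted p under 0.05, called 10 of those 25. That is 40.0%, against 41.0% of all tested genes (20.6% higher and 20.4% lower in IVM). Psma2, Psmb2, Psmb5, Psmc6, Psmd11 and Psmf1 rose, and Psmd4, Psmd7, Psmd9 and Psme3 fell. Under upper quartile scaling, which lowered the median of all tested genes to -0.13, 8 of the 25 proteasome genes fell. In that setting 2063 of the 7746 tested genes fell, against 1583 in FPKM as deposited. The IVM and IVO values did not overlap for 16 of the 25 (64.0%), against 53.5% of all tested genes. Of the 25, Psma5, Psmb5 and Psmd12 had passed the filter through the IVM libraries alone, so for them the filter itself selected for a higher IVM value. Fold changes on this scale understate the change of low genes.

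**Figure D2:**
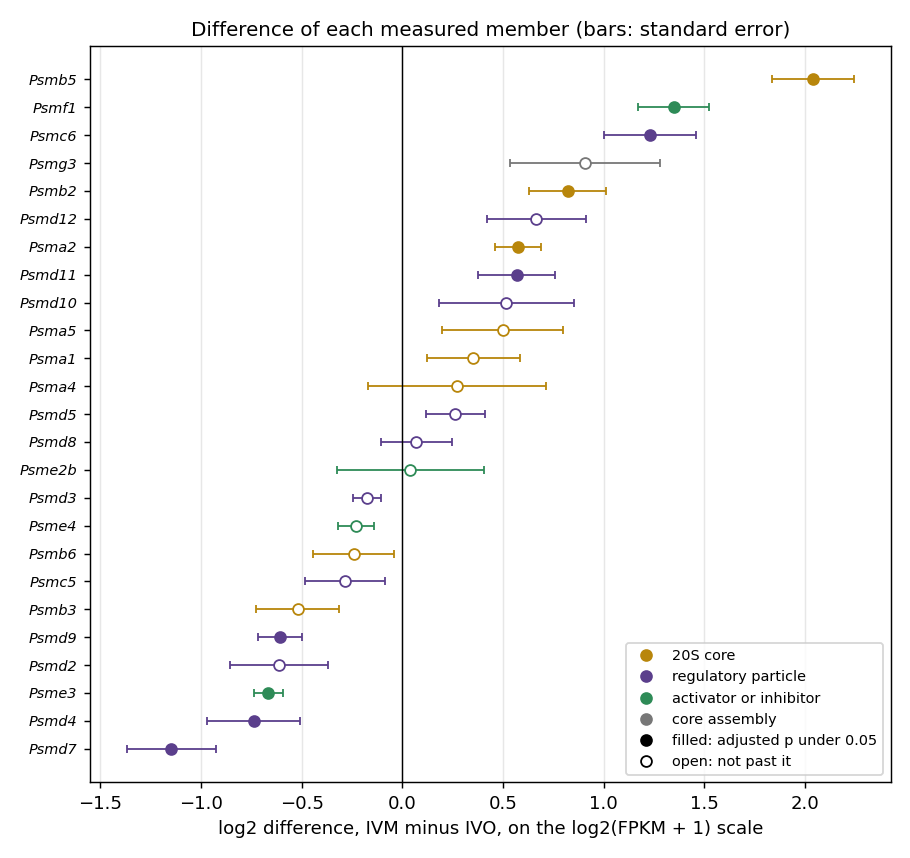
Log2 difference (IVM minus IVO, on log2(FPKM + 1), error bars showing the standard error) of the 25 proteasome genes that passed the filter, ordered by size and coloured by structural part; filled points passed limma at an adjusted p under 0.05. The largest rise is Psmb5 at 2.04 and the largest fall Psmd7 at -1.15, and regulatory particle genes lie on both sides of 0.

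In the 20S core, 3 of the 8 tested subunits rose, none fell and 5 did not pass; the 37.5% called was near the 41.0% of all tested genes, and Psma5 and Psmb5 had entered the test through the IVM libraries alone. The clearest was Psmb5, the subunit with the chymotrypsin-like site (chr14:54614119-54618022, minus strand). It had 3.96, 3.58 and 5.00 FPKM in IVM libraries 1, 2 and 3, against 0.163, 0.452 and 0.160 FPKM in IVO libraries 1, 2 and 3. Every IVM library stood far above every IVO library, which were all close to no signal. The ratio of the means was 16.2 and the log2 difference 2.04 (SE 0.204; limma adjusted p = 0.000127). The annotation holds a processed pseudogene, Psmb5-ps, whose reads the authors' counting could share with Psmb5.

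Psma2, which forms part of the alpha ring, had 32.5, 29.2 and 29.8 FPKM in IVM libraries, against 21.5, 20.98 and 18.0 FPKM in IVO libraries. The groups were well apart and each was tight, at 30.5 ± 1.76 FPKM in IVM and 20.2 ± 1.91 FPKM in IVO (SD, n = 3 each). The log2 difference was 0.58 (SE 0.115; limma adjusted p = 0.00413).

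Psmb2, a beta ring subunit with no cutting site of its own (chr4:126677630-126709714, plus strand), had 3.43, 4.15 and 4.83 FPKM in IVM libraries, against 1.68, 1.71 and 2.31 FPKM in IVO libraries. No IVO value reached the lowest IVM value. Its log2 difference was 0.82 (SE 0.192; limma adjusted p = 0.00859), while the q-value in the authors' deposited table was 0.0676.

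Of the other catalytic subunits, Psmb6 did not give the same picture as Psmb5. Psmb6, which carries the caspase-like site, had 20.5, 14.1 and 17.3 FPKM in IVM libraries, against 16.8, 18.5 and 27.3 FPKM in IVO libraries, and the groups overlapped (log2 difference -0.24; limma adjusted p = 0.368). Psmb7, which carries the trypsin-like site, had 0.442, 2.35 and 0.697 FPKM in IVM libraries, against 0.141 FPKM in IVO library 1 and a listed 0 in IVO libraries 2 and 3. Every IVM value of Psmb7 lay above every IVO value, but Psmb7 was under the filter, so its values are given without a test. Psmb6 and Psmb7 both have annotated pseudogenes (Psmb6-ps, Psmb6-ps2 and Psmb7-ps2). Summed over Psmb5, Psmb6 and Psmb7, the catalytic message was 24.9, 20.02 and 23.0 FPKM in IVM libraries and 17.1, 19.0 and 27.5 FPKM in IVO libraries. These sums overlapped, because Psmb6 supplied most of them.

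Psmb8, Psmb9 and Psmb10 are the catalytic subunits that replace the usual ones in the immunoproteasome, which makes peptides for antigen presentation. Together they summed to 0.0831, 0.0923 and 0 FPKM in IVM libraries and 0.101, 0.0980 and 0.104 FPKM in IVO libraries, so both groups were near the bottom of the scale. Psmb8 gave all of the IVM signal, and Psmb10 was above 0 only in IVO library 1, at 0.101 FPKM. Psmb9 was listed at 0 in all 6 libraries, as were Psma3 and Psme2.

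Among the core subunits that did not pass, Psma1 of the alpha ring had 11.5, 7.39 and 13.2 FPKM in IVM libraries and 6.26, 7.95 and 10.1 FPKM in IVO libraries, an overlap. Psmb3 of the beta ring went the other way, with 4.04, 3.47 and 4.08 FPKM in IVM libraries and 4.32, 6.28 and 7.68 FPKM in IVO libraries, without overlap. Its log2 difference was -0.52 (limma adjusted p = 0.074), and without IVO library 1 it was -0.71 (limma adjusted p = 0.0157). Without IVO library 3 the difference shrank to -0.36 (limma adjusted p = 0.184).

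Below the filter, Psmb4 had 0.796, 0.636 and 0.860 FPKM in IVM libraries and was listed at 0 in all IVO libraries. Psmb1 had 1.83, 1.02 and 1.03 FPKM in IVM libraries against 0.521, 0.240 and 0.638 FPKM in IVO libraries. Both are beta ring subunits without a cutting site, and neither set of values overlapped. Psmb11, the beta subunit known from thymic epithelium, had 0.334, 0.275 and 0.262 FPKM in IVM libraries, against 0.0493 FPKM in IVO library 2 and a listed 0 in IVO libraries 1 and 3. Psma8, the alpha subunit known from the testis, was at or below 0.0567 FPKM in IVM and at or below 0.134 FPKM in IVO libraries. These tissue-specific subunits were thus low in both groups, with no overlap for Psmb11.

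The remaining alpha subunits overlapped between the groups. Psma4 averaged 5.24 ± 2.92 FPKM in IVM and 4.42 ± 3.13 FPKM in IVO libraries (SD, n = 3 each; limma adjusted p = 0.653), and Psma5 averaged 1.37 ± 0.677 FPKM in IVM and 0.693 ± 0.579 FPKM in IVO libraries (limma adjusted p = 0.220). Psma7 was under the filter, with 0.793, 0.506 and 1.71 FPKM in IVM libraries and 0.312, 0 and 0.993 FPKM in IVO libraries, as was Psma6, which was listed at 0 in 1 IVM and 2 IVO libraries. Over all 19 core rows, filtered or not, the log2 difference was above 0 in 11, below 0 in 6 and equal in 2. Among the 16479 table rows above 0 FPKM in any library, 9316 were above 0 and 7163 below.

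In the regulatory particle, 2 of the 12 tested genes rose, 3 fell and 7 did not pass, so that 41.7% were called, close to the 41.0% of all tested genes. Psmc6, an ATPase of the unfolding ring (chr14:45329788-45349705, plus strand), had 4.82, 3.96 and 5.68 FPKM in IVM libraries, against 2.21, 1.31 and 1.01 FPKM in IVO libraries. The lowest IVM value lay well above the highest IVO value. The ratio of the means was 3.19 and the log2 difference 1.23 (SE 0.228; limma adjusted p = 0.00276). Psmc5, the only other ATPase over the filter, had 1.57, 1.13 and 1.19 FPKM in IVM libraries and 1.91, 2.13 and 1.38 FPKM in IVO libraries, which overlapped.

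Psmd7, the lid subunit that pairs with the deubiquitinating enzyme Psmd14 (chr8:107580381-107588464, minus strand), had 2.96, 2.88 and 2.89 FPKM in IVM libraries, against 5.42, 7.78 and 10.5 FPKM in IVO libraries. The IVM libraries were almost identical, the IVO libraries were spread and all were higher. Psmd7 fell by 1.15 on the log2 scale (SE 0.221; limma adjusted p = 0.0034). Psmd14 itself was under the filter, at 0.585 ± 0.355 FPKM in IVM and 0.154 ± 0.0722 FPKM in IVO libraries (SD, n = 3 each).

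Psmd9 is a chaperone that helps assemble the ATPase ring. It had 27.0, 25.7 and 31.2 FPKM in IVM libraries, against 41.3, 44.4 and 43.2 FPKM in IVO libraries. The groups were clearly apart, and Psmd9 fell by 0.61 on the log2 scale (SE 0.108; limma adjusted p = 0.00228). Its annotated exons share 1849 bases with Gm26745 on the opposite strand, and since strand use is not stated, reads of the pair cannot be told apart. The other ATPase ring chaperones did not pass: Psmd5 averaged 8.36 ± 0.529 FPKM in IVM and 6.81 ± 0.694 FPKM in IVO, and Psmd10 averaged 3.20 ± 1.34 FPKM in IVM and 1.95 ± 0.988 FPKM in IVO libraries (SD, n = 3 each).

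Psmd4, a ubiquitin receptor of the particle, had 3.58, 3.06 and 3.75 FPKM in IVM libraries, against 4.58, 9.23 and 6.16 FPKM in IVO libraries. The groups did not overlap, but IVO library 2 stood well above its group. The fall of 0.74 on the log2 scale (SE 0.231; limma adjusted p = 0.0312) kept its direction and lost its call when any library other than IVO 1 was left out, with limma adjusted p between 0.00879 and 0.101 over all settings.

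Psmd11, a lid subunit that braces the regulatory particle against the core, had 1.64, 2.29 and 2.06 FPKM in IVM libraries, against 1.12, 0.838 and 1.10 FPKM in IVO libraries. The groups did not overlap. Its log2 difference of 0.57 (SE 0.191; limma adjusted p = 0.0411) was the weakest of the 10 calls: it was lost whichever library was left out, and its limma adjusted p ran from 0.0155 to 0.207 over all settings.

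Psmd3 had 138.7, 134.2 and 139.3 FPKM in IVM libraries, against 155.6, 153.4 and 156.9 FPKM in IVO libraries. The groups did not overlap, yet the difference was small (log2 difference -0.18; limma adjusted p = 0.0764) and depended on scaling: it was -0.30 under upper quartile scaling, past the threshold at a limma adjusted p of 0.0149, and 0.00 after quantile normalization. Psmd8, another lid subunit, had 6.58, 8.14 and 10.5 FPKM in IVM libraries and 7.93, 7.69 and 7.85 FPKM in IVO libraries, an overlap.

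Psmd2, the scaffold on which shuttle proteins dock, averaged 3.43 ± 0.296 FPKM in IVM and 6.01 ± 2.12 FPKM in IVO libraries (SD, n = 3 each), and the groups overlapped. Its log2 difference of -0.61 did not pass (limma adjusted p = 0.0725), but without IVO library 1 it was -0.89 (limma adjusted p = 0.00547), and the authors' deposited table gave a q-value of 0.00249. Without IVO library 3 the difference shrank to -0.43 (limma adjusted p = 0.190). Psmd12, a lid subunit, averaged 2.03 ± 0.377 FPKM in IVM and 0.951 ± 0.561 FPKM in IVO libraries (SD, n = 3 each), with a log2 difference of 0.67 (limma adjusted p = 0.0584) that passed without IVO library 1 (limma adjusted p = 0.0182). Without IVO library 2 the Psmd12 difference shrank to 0.48 (limma adjusted p = 0.166).

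The 8 regulatory particle genes under the filter were 4 of the 6 ATPases (Psmc1 to Psmc4) and Psmd1, Psmd6, Psmd13 and Psmd14. Psmc1 was the highest ATPase among them, with 0.981, 1.38 and 0.577 FPKM in IVM libraries and 0.838, 0.0772 and 0.246 FPKM in IVO libraries, an overlap. Psmd6, a lid subunit, was the only one of the 8 with every IVM library below every IVO library, at 0.232, 0.343 and 0.390 FPKM in IVM and 0.692, 0.548 and 0.485 FPKM in IVO libraries. Psmc3ip, which acts in meiotic recombination, was listed at 0 except in IVM library 1, at 0.330 FPKM. Over all 20 regulatory particle rows the difference was above 0 in 13 and below 0 in 7. Among the 16479 table rows above 0 FPKM in any library, it was above 0 in 9316 and below 0 in 7163.

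The summed core level, relative to that of the regulatory particle, was higher in every IVM library than in every IVO library, and this separation rested on Psma2. Summed core levels were 85.6, 72.5 and 88.4 FPKM in IVM libraries, against 56.0, 58.4 and 77.5 FPKM in IVO libraries, which overlapped through IVM library 2 and IVO library 3. Summed regulatory particle levels were 206.9, 202.1 and 217.5 FPKM in IVM libraries, against 234.4, 245.5 and 247.6 FPKM in IVO libraries, with every IVM library below every IVO library. Which part separated depended on the scaling. The regulatory particle sums overlapped once libraries were rescaled to equal sums (means of 219.7 in IVM and 231.3 in IVO) or quantile-normalized (216.2 in IVM and 234.6 in IVO). They stayed apart under upper quartile scaling (199.8 in IVM and 253.9 in IVO). The core sums came apart after rescaling to equal sums, with every IVM library above every IVO library (means of 86.5 in IVM and 61.0 in IVO). They overlapped under upper quartile scaling and quantile normalization.

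The ratio of the core sum to the regulatory particle sum was 0.414, 0.359 and 0.406 in IVM libraries, against 0.239, 0.238 and 0.313 in IVO libraries. The lowest IVM ratio exceeded the highest IVO ratio, and the means were 0.393 ± 0.0298 in IVM and 0.263 ± 0.0430 in IVO (SD, n = 3 each). Scaling a library does not move a ratio within it. No p-value is given for this score, since its members were chosen with results known. With no overlap between the groups, leaving out a library could not reverse the direction. The log2 difference of the ratio was 0.59, and 0.52 to 0.72 with each library left out.

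A few transcripts set these sums. Psmd3 alone made up a mean of 65.8% of the regulatory particle sum in IVM and 64.1% in IVO libraries, and Psma2, Psmb6 and Psma1 together made up 71.2% of the core sum in IVM and 77.4% in IVO libraries. Without Psmd3 the ratio was 1.25, 1.07 and 1.13 in IVM libraries, against 0.711, 0.634 and 0.854 in IVO libraries. Without Psmd3 and the chaperones Psmd5, Psmd9 and Psmd10 it was 2.97, 2.29 and 2.50 in IVM libraries, against 1.83, 1.54 and 2.04 in IVO libraries. These kept the groups apart, but leaving out Psma2 did not: the ratio was then 0.257, 0.214 and 0.270 in IVM libraries, against 0.147, 0.152 and 0.240 in IVO libraries, and IVO library 3 stood above IVM library 2. When each of the 39 core and regulatory particle genes was left out in turn, the groups stayed apart for 38 and overlapped for Psma2. Psma3 and Psmb9, listed at 0, could not move the ratio, and most other genes made up too little of either sum to move it much. The exclusions were chosen after the values were seen.

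Within each particle the sections did not move alike. The alpha ring summed to 49.1 ± 5.79 FPKM in IVM and 34.2 ± 4.45 FPKM in IVO libraries, and the ATPase ring to 8.17 ± 0.580 FPKM in IVM and 4.20 ± 1.09 FPKM in IVO libraries (SD, n = 3 each); in both, every IVM library was above every IVO library under all 4 scalings examined. Psma2 supplied most of the alpha ring sum, and without it the ring summed to 17.7, 13.7 and 24.5 FPKM in IVM libraries and 10.7, 10.1 and 21.3 FPKM in IVO libraries, which overlapped. Without Psmc6 the ATPase ring summed to 3.32, 3.64 and 3.08 FPKM in IVM libraries and 3.02, 2.99 and 2.06 FPKM in IVO libraries, still apart but narrowly. The non-ATPase subunits of the regulatory particle summed to 161.2 ± 4.11 FPKM in IVM and 186.6 ± 5.39 FPKM in IVO libraries, without overlap, but the groups overlapped once libraries were rescaled to equal sums or quantile-normalized.

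Counted gene by gene rather than by abundance, the core median exceeded the regulatory particle median by 0.48 on the log2 scale. The ratio of the sums had a log2 difference of 0.59. These sizes cannot be ranked, because only the medians carried a pseudocount and a filter. Over the settings, the gap between the medians ran from 0.25 without a filter to 0.74 at a mean of at least 5 FPKM. The median log2 difference was 0.43 over the 8 tested core genes and -0.05 over the 12 tested regulatory particle genes, against -0.02 over all 7746 tested genes. Of these, Psma5 and Psmb5 of the core and Psmd12 of the regulatory particle had passed the filter through the IVM libraries alone. Over every row without a filter the medians were 0.34 for 19 core genes and 0.10 for 20 regulatory particle genes, against 0.03 over the whole table. Whether the core and the regulatory particle differed beyond other gene sets was not tested.

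**Figure D3:**
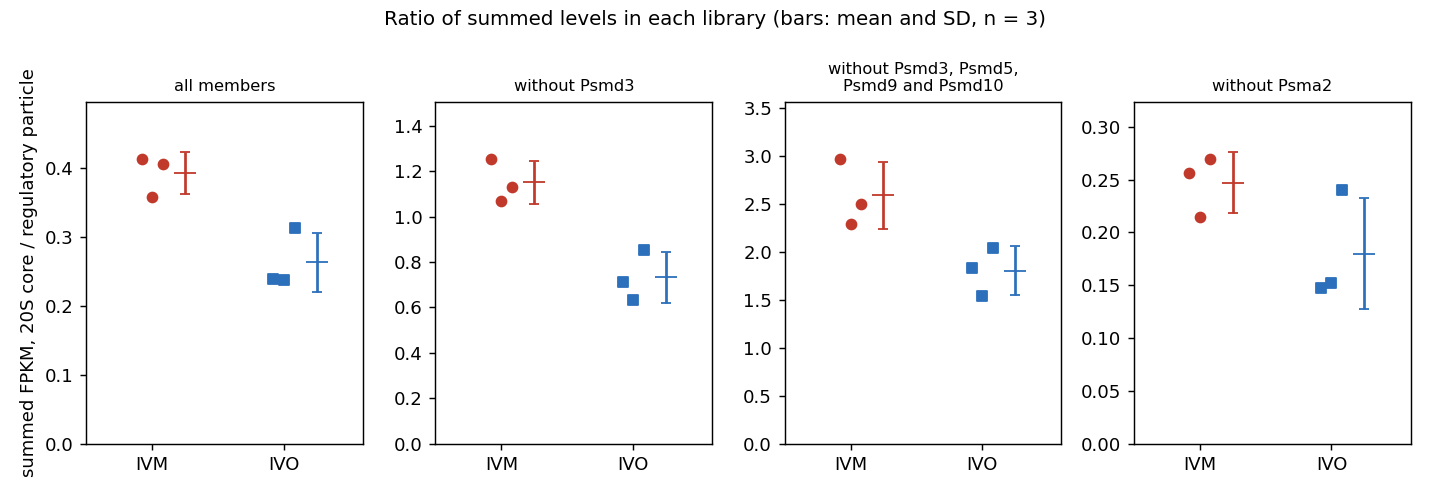
Ratio of summed 20S core FPKM to summed regulatory particle FPKM in each library (IVM left, IVO right; points are libraries, bars the mean and SD, n = 3), for all rows, without Psmd3, without Psmd3, Psmd5, Psmd9 and Psmd10, and without Psma2. The 3 IVM libraries lie above the 3 IVO libraries in every panel but the last, at 0.359 to 0.414 against 0.238 to 0.313 for all rows; without Psma2 the groups overlap.

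Some proteins can cap the core in place of the regulatory particle. Of these, Psme3 and Psme4 had the highest mean FPKM over the 6 libraries of any proteasome gene after Psmd3. In every IVO library Psme3 stood above Psmd3. Psme1, Psme2 and Psme2b were low. Psme3, the nuclear activator that opens the core without ubiquitin (chr11:101316213-101323537, plus strand), had 105.4, 105.6 and 110.8 FPKM in IVM libraries, against 169.7, 172.1 and 169.8 FPKM in IVO libraries. Both groups were tight and far apart. Psme3 fell by 0.66 on the log2 scale (SE 0.0723; limma adjusted p = 0.000191), and it kept the call under every scaling.

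Psme4, the activator known for directing the core to acetylated histones in male germ cells, had 43.5, 43.5 and 39.8 FPKM in IVM libraries, against 48.3, 50.2 and 50.6 FPKM in IVO libraries. The groups did not overlap, and the log2 difference of -0.23 did not pass (limma adjusted p = 0.0723). Under upper quartile scaling it was -0.36 (limma adjusted p = 0.0199).

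Psmf1, a protein that inhibits the core in vitro and also acts as an adaptor for its transport (chr2:151715812-151744186, minus strand), went the opposite way. It had 10.03, 10.03 and 8.33 FPKM in IVM libraries, against 2.43, 3.38 and 3.56 FPKM in IVO libraries. Every IVM library was far above every IVO library. The ratio of the means was 3.03 and the log2 difference 1.35 (SE 0.176; limma adjusted p = 0.000448). Summed over all 6 activator and inhibitor genes, the level was 160.6 ± 1.40 FPKM in IVM and 224.7 ± 3.51 FPKM in IVO libraries (SD, n = 3 each), a sum that Psme3 dominated. Psme1, a subunit of the interferon-induced activator, was listed at 0 in all but IVM library 2, while Psme2b overlapped between the groups at 1.48 ± 1.13 FPKM in IVM and 1.37 ± 0.862 FPKM in IVO libraries.

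Of the core assembly chaperones, only Psmg3 passed the filter. It had 3.49, 5.43 and 4.24 FPKM in IVM libraries, against 2.40, 3.49 and 0.505 FPKM in IVO libraries, and IVM library 1 stood barely above IVO library 2. The log2 difference of 0.91 did not pass (limma adjusted p = 0.0796), but did without IVO library 2 (log2 difference 1.24, limma adjusted p = 0.0308). Without IVO library 3 the difference shrank to 0.45 (limma adjusted p = 0.150). Psmg1, which helps form the alpha ring, averaged 0.647 ± 0.248 FPKM in IVM and 0.931 ± 0.230 FPKM in IVO libraries (SD, n = 3 each). Psmg4, which pairs with Psmg3, had 0.636 and 2.60 FPKM in IVM libraries 1 and 2 and 0.374 FPKM in IVO library 2, and was listed at 0 in the others. Psmg2 was listed at 0 in all but IVO library 2.

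Genes that supply or regulate the proteasome outside the symbol rule fell more often than they rose in FPKM as deposited (7 against 1), but not after rescaling to equal sums, where 4 fell and 5 rose. Of 24 such genes found in the table, 19 passed the filter and 11 of these did not pass the test; the 42.1% called was close to the 41.0% of all tested genes (20.6% higher and 20.4% lower), and whether the direction differed from that background was not tested. The list had a median log2 difference of -0.24. The riser was Nploc4, a cofactor of the unfoldase that hands ubiquitinated proteins to the proteasome, with 7.40, 7.06 and 5.47 FPKM in IVM libraries, against 1.25, 0.725 and 2.00 FPKM in IVO libraries (log2 difference 1.74, SE 0.236; limma adjusted p = 0.000545). Its IVM values were all well above its IVO values.

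Ubqln1, a shuttle that carries ubiquitinated proteins to the proteasome, had 480.0, 468.0 and 406.5 FPKM in IVM libraries, against 646.5, 662.9 and 648.3 FPKM in IVO libraries, and fell by 0.53 on the log2 scale (SE 0.078; limma adjusted p = 0.000829). Zfand2a, a stress-induced protein that binds the regulatory particle, had 110.7, 103.1 and 93.5 FPKM in IVM libraries, against 174.7, 191.4 and 197.2 FPKM in IVO libraries, and fell by 0.87 (SE 0.0915; limma adjusted p = 0.000162). Neither gene's groups came near each other.

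Nfe2l1 is the transcription factor that raises proteasome genes when the proteasome is impaired, and it becomes active only after Ngly1 strips its sugars and the protease Ddi2 cuts it. Nfe2l1 itself had 111.1, 116.6 and 125.2 FPKM in IVM libraries and 117.1, 92.8 and 67.4 FPKM in IVO libraries, which overlapped (log2 difference 0.38, limma adjusted p = 0.113). It passed as higher in IVM in 3 of 16 other settings: equal sums, quantile normalization and without IVO library 1. The q-value in the authors' deposited table was 0.0148, also higher in IVM. Ngly1 had 10.4, 8.91 and 8.16 FPKM in IVM libraries, against 18.3, 16.98 and 19.4 FPKM in IVO libraries, and fell by 0.92 on the log2 scale (SE 0.136; limma adjusted p = 0.000872).

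Ddi2 had 89.8, 68.5 and 85.9 FPKM in IVM libraries, against 120.7, 121.8 and 88.8 FPKM in IVO libraries. Its annotated exons share 1749 bases with Rsc1a1 on the same strand, and reads from those bases cannot be told apart. The groups overlapped, since IVM library 1 exceeded IVO library 3. Ddi2 fell by 0.43 on the log2 scale (SE 0.148; limma adjusted p = 0.0447), but the call was lost in 11 of 16 other settings, among them equal sums, quantile normalization, both smaller pseudocounts and the loss of any library but IVO 3, and the q-value in the authors' deposited table was 0.141. Ube3c, a ubiquitin ligase that works on proteins held at the proteasome, averaged 13.2 ± 0.584 FPKM in IVM and 17.9 ± 0.925 FPKM in IVO libraries (SD, n = 3 each). It fell by 0.41 (SE 0.116, limma adjusted p = 0.0206), a call that was lost after rescaling to equal sums and when any IVM library was left out. Akirin2, which brings proteasomes into the nucleus, Ubqln2 and the 5 genes above made up the 7 that fell. Ubqln2 lost its call in 5 of 16 other settings, among them equal sums, with a limma adjusted p of up to 0.0806.

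**Figure D4:**
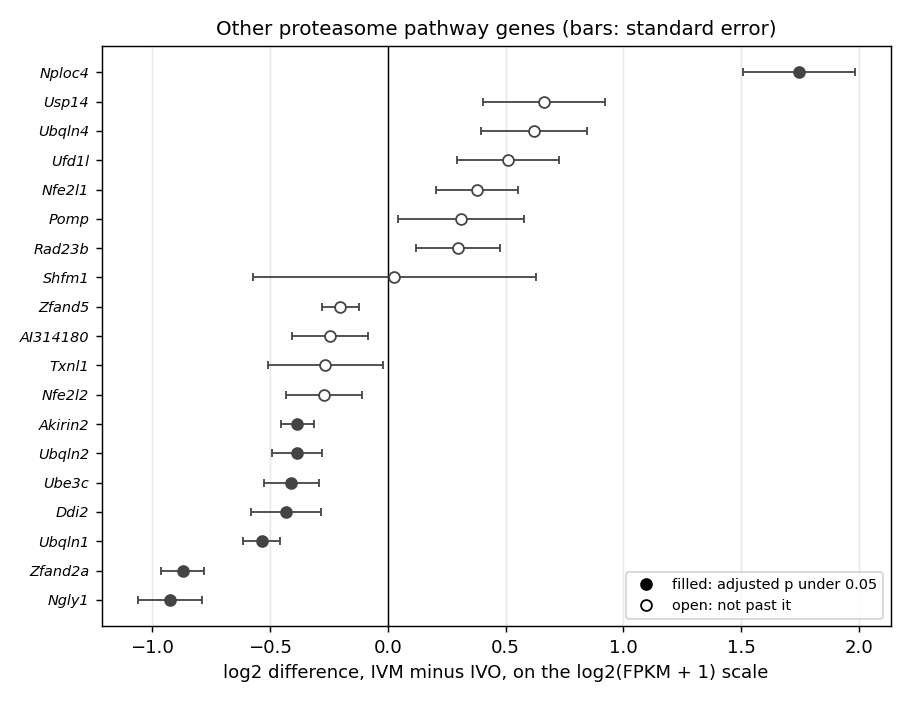
Log2 difference (IVM minus IVO, on log2(FPKM + 1), error bars showing the standard error) of the 19 proteasome-related genes outside the symbol rule that passed the filter; filled points passed limma at an adjusted p under 0.05. Nploc4 stands alone on the right at 1.74, and the 7 genes that fell (4 after rescaling to equal sums) include Ngly1 at -0.92 and Zfand2a at -0.87.

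Nfe2l1 acts through the antioxidant response element, so RefSeq promoter windows (GRCm38.p6, 250 bases before to 50 bases after each gene's start) were searched on both strands for TGACNNNGC, whose reverse complement is GCNNNGTCA. The motif was present in 6 of the 42 proteasome genes with a window (14.3%), against 3781 of 27025 genes (14.0%). It was present in 2 of 15 core genes and in 3 of 17 regulatory particle genes. Among the called genes with a window, it was present in 2 of 5 that rose (Psmb5 and Psmc6) and in 1 of 3 that fell (Psmd9). Psmb2 and Psmd7, also called, had no window. Whether the motif bears on the changes was not tested. The stretches upstream of the RefSeq start are shown for these 3 called genes with a match. Capitals mark the match, and each is given 5′ to 3′ on the gene's strand.
Psmb5: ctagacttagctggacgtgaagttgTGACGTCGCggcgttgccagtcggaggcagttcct
Psmc6: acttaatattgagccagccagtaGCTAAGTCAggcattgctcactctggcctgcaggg
Psmd9: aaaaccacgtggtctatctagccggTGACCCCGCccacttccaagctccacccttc

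The Psmb5 stretch lies at chr14:54618008-54618067 on the minus strand, with the match beginning 47 bases before the RefSeq start at 54617995, which lies inside the GENCODE gene given above; part of the stretch is thus within that gene's annotated span. The Psmc6 stretch lies at chr14:45329574-45329631 on the plus strand. Its match begins 227 bases before the RefSeq start at 45329824 and reads as the reverse complement. The Psmd9 stretch lies at chr5:123228134-123228189 on the plus strand, with the match beginning 31 bases before the RefSeq start at 123228190. GENCODE places Psmd9 at chr5:123169413-123250131, so the whole Psmd9 stretch is within that gene's annotated span. A match of letters is not a bound site, and the share in proteasome genes was close to that of all promoters.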

How the data were processed

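RNA-seq was done on 3 IVM and 3 IVO libraries of mouse metaphase II eggs. The values deposited by the authors were FPKM for every gene in every library, per the file headers. Their table also holds p-values and q-values computed by the authors, of which only the q-value of the IVM and IVO groups was used. The submitters' processing notes name mm9, while the loci in the table match GRCm38, so coordinates are those of GENCODE release 21 for mouse (GRCm38). Aligner, counting tool, strand use and poly(A) selection were not given in the sources used here. FPKM carry no read counts, so no counting interval is given.

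From the FPKM, log2(FPKM + 1) was tested with limma 3.58.1 (R 4.3.3) with an intensity trend, two-sided, over genes with a mean of at least 1 FPKM, with Benjamini-Hochberg adjustment over all 7746 genes and a threshold of 0.05. An exact permutation test of 3 against 3 libraries cannot go below 0.1 and was not used. The procedure was tested on simulated data. Values were given for every called gene, the 2 most abundant genes of each structural section, the catalytic subunits, and up to 6 called genes of the related list; the other proteasome genes are given for completeness, and which of them carry values, and Nfe2l1, were chosen after their values were seen. The proteasome genes and the lists were chosen with earlier results of these data known.

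Alternatives were other pseudocounts (0.1 and 0.01), no filter or a mean of at least 5 FPKM, rescaling to equal sums, upper quartile scaling (over rows above 0 in any library), quantile normalization, no trend, sample weights, a replicate block, a threshold of 0.01, and leaving out each library.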

Additional observations from a re-analysis of the deposited data

How the results depend on the processing

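Of the 10 called proteasome genes, 8 kept the call in every setting in which they were tested at the 0.05 threshold; Psmd11 and Psmd4 did not. Of the 15 not called, 6 passed in some setting. The 6 higher genes became 2 at a mean of at least 5 FPKM, where fewer genes are tested, and stayed between 5 and 6 with each library left out. The 4 lower genes became 8 under upper quartile scaling and 7 with sample weights, and were between 3 and 6 with each library left out. Over all tested genes, the 1583 lower became 2063 under upper quartile scaling and 1760 with sample weights. The related genes outside the symbol rule, 1 higher and 7 lower, gave 2 higher without a filter, 0 at a mean of at least 5 FPKM, 5 after rescaling to equal sums, 2 after quantile normalization, 3 with sample weights, 2 under the replicate block, 4 by the authors' q-values and 1 to 4 with each library left out (4 without IVO library 3, 2 without IVO library 1); they gave 4 lower after rescaling to equal sums, 4 at a threshold of 0.01 and 4 to 7 with each library left out. The core median minus the regulatory particle median, 0.48, was 0.25 without a filter, 0.74 at a mean of at least 5 FPKM and 0.29 after quantile normalization. Signs turned for 4 genes that did not pass: Psmd3 was 0.00497 after quantile normalization; Psmd8 was -0.0453 under upper quartile scaling and -0.0839 to 0.215 with each library left out; Psme2b, a close copy of Psme2, was -0.0291 under upper quartile scaling, -0.20 after quantile normalization and -0.31 to 0.30 with each library left out; Psma4 was -0.15 to 0.71 with each library left out. The causes were not tested. Scaling moved the median of all tested genes from -0.02 to 0.10 (equal sums), -0.13 (upper quartile) or -0.07 (quantile), and the split of all calls from 1595 higher and 1583 lower to 1949 and 1167, 1354 and 2063, or 1453 and 1707. With the replicate number as a block, 6 proteasome genes were higher and 5 lower: Psmd11 was lost, and Psmd2 and Psmg3 passed. Same-numbered libraries deviated together only weakly (r = 0.0777, 0.0599 and 0.09, across genes), although each correlated best with its own number, so the numbers were not taken as pairs.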
